A study of Mus musculus with 6 samples.

Results

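The 8 genes described here belong to arginine use and polyamine metabolism, and were measured in tumor-associated macrophages (TAMs) that carried or lacked a myeloid deletion of Pdcd1. The genes, listed by symbol, are the inducible nitric oxide synthase Nos2, the argininosuccinate synthase Ass1, the arginine transporter Slc7a2, the ornithine enzymes Odc1 and Oat, and the polyamine enzymes Srm, Sms and Sat1. They are 8 of the 55421 genes in the count table, and all 8 passed the filter on low counts that left 14469 genes for testing. Pdcd1f/f mice carry loxP sites in both copies of Pdcd1, the gene of the inhibitory receptor PD-1, and served as controls. Pdcd1f/fLysMcre mice carry the same floxed gene and, in addition, Cre recombinase driven by the lysozyme promoter, which acts in macrophages, monocytes and neutrophils rather than in macrophages alone. All mice bore fibrosarcomas grown from a single implanted cell line, named M17 in the labels and MC17-51 in the methods, and were young adults in about the third month of life. TAMs were collected on day 15 and sorted as live CD45+CD11b+F4/80+Ly6G- cells, with 3 libraries for each genotype. Where 3 values follow each other for a genotype, they are replicates 1, 2 and 3 in that order. The labels do not say whether each library came from a separate mouse, so the p-values given here measure the spread between these libraries, which may be technical.

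Arginine enters macrophages through cationic amino acid transporters and is then contested by enzymes with opposed uses. One use splits it to urea and ornithine. Nitric oxide synthase 2 turns the same substrate into nitric oxide and citrulline, and is a marker of inflammatory macrophages. Ass1 starts the return of citrulline to arginine. Ornithine is decarboxylated by Odc1 to putrescine, which Srm extends to spermidine and Sms to spermine, while Sat1 acetylates spermidine and spermine for export or breakdown and Oat diverts ornithine towards proline and glutamate.

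Library totals ranged from 41833823 to 51417209 counts, and 3 counts correspond to between 0.0583 and 0.0717 CPM (counts scaled to the library total), which covers counting error only. In Pdcd1f/fLysMcre libraries Lyz2, the gene into which this Cre is commonly inserted, fell by 8.99 on the log2 scale (edgeR adjusted p = 2.43e-12), which checks the genotype labels. Pdcd1 itself had so few reads, with means of 13.0 and 10.8 normalized counts, that its level did not check them (log2 fold change -0.25 ± 0.45 SE, edgeR adjusted p = 0.771). Lyz1, which lies beside Lyz2 on chromosome 10, rose from 156 to 3625 normalized counts (log2 fold change 4.54, edgeR adjusted p = 8.75e-09). Only Pdcd1f/fLysMcre mice carried Cre, so effects of Cre, of the fall of Lyz2 and of the Pdcd1 deletion cannot be told apart here. Deviations of single genes from their genotype mean followed GC content downwards in Pdcd1f/f replicate 1 and Pdcd1f/fLysMcre replicate 2 (Spearman rho -0.76 and -0.70 across 10596 genes) and upwards in the other 4 libraries (0.19 to 0.71). The log2 fold change of each of the 8 genes is given below with and without these 2 libraries. The labelled cell type was checked against its defining markers. The 7 macrophage genes summed to 244200 to 273900 normalized counts in each library, and the neutrophil genes Ly6g, Elane and Camp had at most 3 counts in every library. Adgre1, which encodes F4/80, and Csf1r nevertheless fell, by 0.38 and 0.32 on the log2 scale (edgeR adjusted p = 0.00496 and 0.0308). The summed markers were lower without overlap in Pdcd1f/fLysMcre libraries for macrophages (7 genes, 244200 to 247000 against 255700 to 273900), neutrophils (10 genes, 3819 to 3953 against 4220 to 4540), B and plasma cells (4 genes, 120.0 to 163.8 against 168.8 to 210.0) and endothelial cells (3 genes, 1519 to 1643 against 1869 to 1988), but the markers of a list did not move together. Cd14, on the macrophage list, was higher in every Pdcd1f/fLysMcre library (51806 and 57298 normalized counts, edgeR adjusted p = 0.163). On the neutrophil list Csf3r fell from 2412 to 1694 (edgeR adjusted p = 0.00686), while the means of S100a8 (1253 and 1472) and S100a9 (575 and 626) were higher without passing. The endothelial sum was lower through Pecam1, which fell from 1082 to 702 (edgeR adjusted p = 0.0034), whereas Kdr (691 and 698) and Cdh5 (169 and 168) had like means in the genotypes. The B and plasma cell sum was lower through Cd79b (181 and 126, edgeR adjusted p = 0.067), with Cd79a at no more than 3 counts in any library. The sums for T and NK, dendritic, and tumor or stroma markers overlapped between the genotypes, although single dendritic and stromal genes did not. The T and NK sum was mostly Cd4 (611 and 572 normalized counts, edgeR adjusted p = 0.635). Cd3d, Cd3e, Cd3g, Cd8a and Ncr1 each had 0 counts in at least 1 library, so that sum does not measure T or NK cells. Col1a2, a stromal collagen, fell from 132 to 65.6 normalized counts (edgeR adjusted p = 0.0121). The 3 dendritic markers tested had positive log2 fold changes and did not pass, with Flt3 higher without overlap (46.7 and 74.8 normalized counts, log2 fold change 0.67, edgeR adjusted p = 0.137) and Zbtb46 at 50.5 and 81.0 (log2 fold change 0.69, edgeR adjusted p = 0.12). The genotypes also differed in sex-linked transcripts. The Y-linked genes Uty, Ddx3y, Kdm5d and Eif2s3y summed to 1545 to 1914 normalized counts in Pdcd1f/f and 6267 to 7233 in Pdcd1f/fLysMcre libraries, and Xist, from the inactive X chromosome, ranged from 17318 to 26511 and from 8530 to 13137 (log2 fold change -0.99, edgeR adjusted p = 0.0098). Both kinds of transcript were thus present in every library. The methods state that males and females entered each experiment in equal numbers, but the sex of the mice behind each library, and whether cells of several mice were pooled, is not given in the sources used here. For every gene the sex-linked difference and genotype cannot be told apart. The part of the marker differences in the results below was not tested. In bulk RNA from sorted cells, a smaller share of cells that express a gene and less RNA per cell cannot be told apart.

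Only Slc7a2 passed the test among the 8 genes, and the values of the others pointed to both sides. Slc7a2 fell by 27.3%. Nos2 had lower values in every Pdcd1f/fLysMcre library than in any Pdcd1f/f library, by 13.8%. The polyamine enzymes Odc1 and Sms were higher in every Pdcd1f/fLysMcre library, by 13.1% and 23.0%. These 3 did not pass the threshold of an adjusted p of 0.05 over all genes tested. Ass1, Oat, Srm and Sat1 overlapped between the genotypes. One lower and no higher gene among the 8 compares with a background of 5.43% of all 14469 genes called in either direction, 3.01% lower and 2.42% higher. The 4 genes of 8 whose libraries did not overlap compare with 27.2% of all genes tested. The median log2 fold change was -0.01 over the 8 genes and -0.0026 over all genes. These genes, and the pathway lists below, were chosen with earlier results of these data known, so their shares beside the background are a description.

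**Figure D1:**
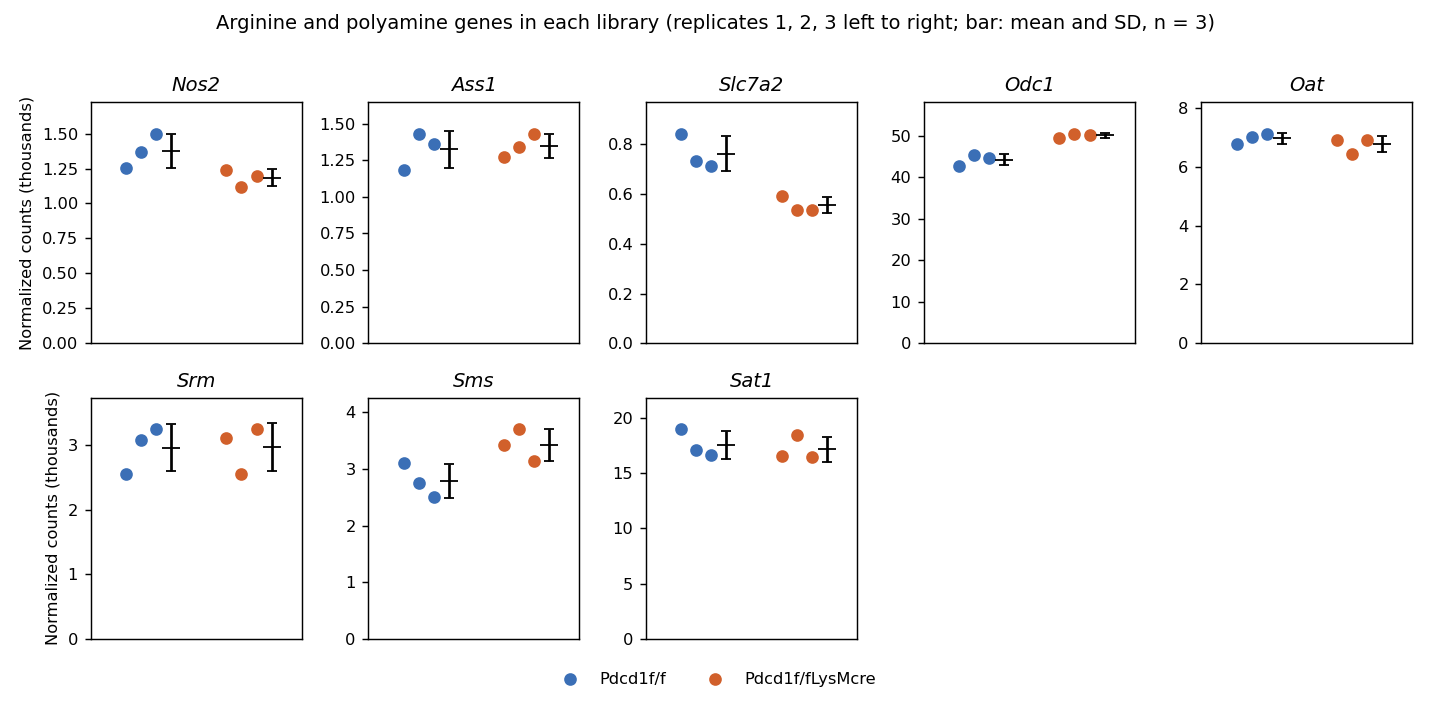
Normalized counts of the 8 genes, divided by 1000 on the axes, in each library, one panel a gene with its axis from 0, blue for Pdcd1f/f and orange for Pdcd1f/fLysMcre, with replicates 1, 2 and 3 from left to right and a bar for the mean and SD of 3 libraries. The colors do not overlap for Nos2 and Slc7a2, which were lower in Pdcd1f/fLysMcre, or for Odc1 and Sms, which were higher.

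Levels between genes were compared as normalized counts per kb of exon, because longer transcripts give more reads. Odc1 stood first in both genotypes, at 13010 ± 398 per kb in Pdcd1f/f and 14710 ± 166 per kb in Pdcd1f/fLysMcre libraries (SD, n = 3). Sat1 followed at 6332 ± 448 and 6186 ± 405 per kb, then Oat at 2951 ± 80.2 and 2865 ± 115 per kb and Srm at 1851 ± 227 and 1854 ± 231 per kb. The lower end held Ass1 at 548 ± 53.6 and 558 ± 33.9 per kb, Sms at 464 ± 50.8 and 570 ± 46.3 per kb, Nos2 at 312 ± 27.6 and 268.5 ± 13.99 per kb and Slc7a2 at 83.6 ± 7.66 and 60.8 ± 3.52 per kb. The order was the same in the genotypes apart from Ass1 and Sms, which exchanged places. Those are also the only neighbors in the order whose libraries overlapped, in both genotypes. Of the Ass1 stretches of read length, 40.5% are shared with the pseudogene Gm5424, which had 11 to 29 counts. How reads that fit both genes were assigned, and what this does to the level and place of Ass1, was not tested.

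**Figure D2:**
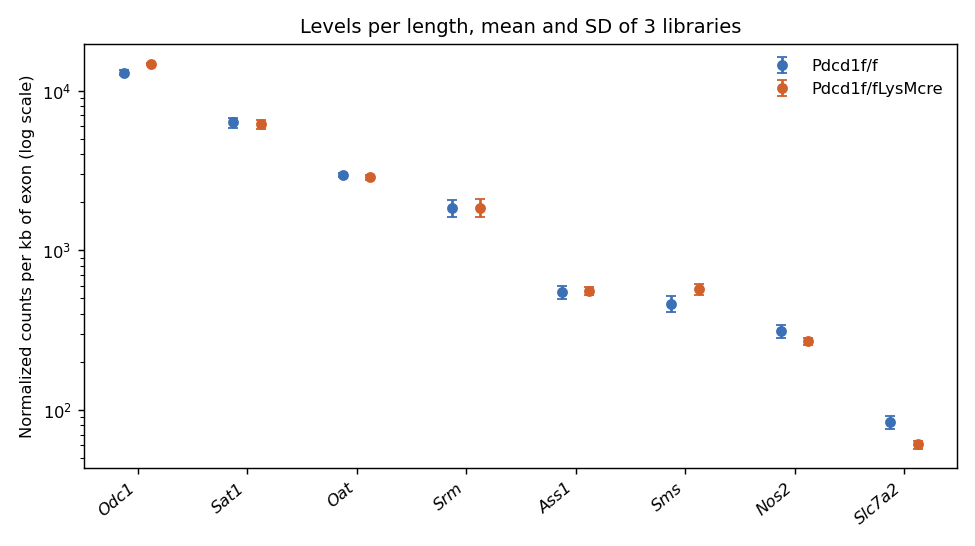
Level of each gene in normalized counts per kb of exon on a log axis, with the mean and SD of 3 libraries for Pdcd1f/f in blue and Pdcd1f/fLysMcre in orange, ordered by the Pdcd1f/f level. Odc1 lies highest, at 13010 per kb or more, and Slc7a2 lowest, at 83.6 per kb or less, in both genotypes.

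Nos2 was examined first, as the enzyme of the inflammatory use of arginine. Nos2 (ENSMUSG00000020826, GRCm38 chromosome 11, 78920787 to 78960254, plus strand) had 1257, 1368 and 1500 normalized counts in the control libraries, against 1240, 1118 and 1197 in the Pdcd1f/fLysMcre libraries. The gap between the genotypes was narrow, with the highest Pdcd1f/fLysMcre value just under the lowest Pdcd1f/f value. Its log2 fold change of -0.21 ± 0.09 (SE, 95% interval -0.40 to -0.02) did not pass (edgeR adjusted p = 0.163). Without the 2 libraries that stand apart in GC content, a choice made after seeing the data, it was -0.24 and passed (edgeR adjusted p = 0.0201). It was -0.28 without Pdcd1f/f replicate 1 alone (edgeR adjusted p = 0.0293). In a fit that corrected each library for GC content and length by loess offsets it was -0.11 (edgeR adjusted p = 0.226).

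Ass1 (ENSMUSG00000076441, chromosome 2, 31470207 to 31520672, plus strand) ranged from 1180 to 1430 normalized counts in Pdcd1f/f and from 1269 to 1432 in Pdcd1f/fLysMcre libraries, with a log2 fold change of 0.03 (95% interval -0.17 to 0.23, edgeR adjusted p = 0.877), which was -0.05 without the 2 libraries that stand apart (edgeR adjusted p = 0.677). Asl, which completes the return of citrulline to arginine, averaged 1966 ± 194 and 1721 ± 167 normalized counts, and did not pass either (log2 fold change -0.19, edgeR adjusted p = 0.259).

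In arginine transport, related carriers changed in opposite directions. Slc7a2 encodes CAT2, the inducible cationic amino acid transporter that supplies arginine in activated macrophages, and Slc7a1 encodes CAT1, its widely expressed relative. Slc7a2 (ENSMUSG00000031596, chromosome 8, 40862396 to 40922308, plus strand) had 844, 732 and 715 normalized counts in the control libraries, against 592, 538 and 535 in the Pdcd1f/fLysMcre libraries. The genotypes were well separated, and Slc7a2 fell by 0.46 ± 0.10 (SE) on the log2 scale (edgeR adjusted p = 0.0219). The call was lost when Pdcd1f/f replicate 2 (adjusted p = 0.086) or Pdcd1f/fLysMcre replicate 1, 2 or 3 (0.0719, 0.0796 and 0.0663) was left out, and held in the other 2 fits that left out 1 library. Without both libraries that stand apart in GC content the log2 fold change was -0.36 (edgeR adjusted p = 0.00684). Part of the Slc7a2 span is shared with the long noncoding gene Gm26584 on the other strand.

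Slc7a1 (ENSMUSG00000041313, chromosome 5, 148327410 to 148399904, minus strand) had 5381, 5343 and 5661 normalized counts in the control libraries, against 7881, 7133 and 7700 in the Pdcd1f/fLysMcre libraries. It rose by 0.47 ± 0.06 (SE) on the log2 scale (edgeR adjusted p = 0.00227), and passed under all 16 alternatives. Per kb the level of Slc7a1 exceeded that of Slc7a2 by a geometric mean of 5.68-fold in Pdcd1f/f and 10.8-fold in Pdcd1f/fLysMcre libraries. This ratio was computed after the values of both genes were seen and is a description. The other 4 genes of the transport list did not pass, and among them Slc3a2, the heavy chain shared by several exchangers, had 22756 ± 1705 and 23434 ± 638 normalized counts. Slc7a7, Slc7a6 and Slc7a3 had log2 fold changes of -0.11, 0.13 and 0.84 (edgeR adjusted p = 0.39, 0.251 and 0.216), the last from means of 9.74 and 17.4 normalized counts.

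Polyamine synthesis was next examined from ornithine onwards. Odc1 (ENSMUSG00000011179, chromosome 12, 17544794 to 17551505, plus strand), the decarboxylase that commits ornithine to polyamines, had 42786, 45423 and 44642 normalized counts in the control libraries, against 49468, 50541 and 50304 in the Pdcd1f/fLysMcre libraries. The lowest Pdcd1f/fLysMcre value lay clear of the highest control. The log2 fold change of 0.18 ± 0.06 (SE, 95% interval 0.05 to 0.31) did not pass (edgeR adjusted p = 0.0915). It was 0.14 without the 2 libraries that stand apart (edgeR adjusted p = 0.0183) and 0.26 with the GC and length offsets (adjusted p = 0.000223). DESeq2 also placed it past the threshold (log2 fold change 0.18, adjusted p = 0.0301). Odc1 shares stretches of 42 bases with 13 pseudogenes at 1% or more of its stretches, up to 14.4% for Gm7993. These pseudogenes had at most 111 counts in any library. The protein-coding gene AW146154 shares 8.3% (43 to 90 counts). The small nucleolar RNA gene Gm22748 overlaps the Odc1 span on the same strand (182 to 223 counts). Such counts do not show how reads that fit more than 1 gene were assigned, which was not tested.

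Sms (ENSMUSG00000071708, chromosome X, 157443855 to 157492287, minus strand), the spermine synthase, had 3109, 2746 and 2503 normalized counts in the control libraries, against 3429, 3702 and 3145 in the Pdcd1f/fLysMcre libraries. The lowest Pdcd1f/fLysMcre value lay just above the highest control. Its log2 fold change was 0.30 ± 0.09 (SE, 95% interval 0.10 to 0.50, edgeR adjusted p = 0.0815), and it passed without the 2 libraries that stand apart (0.32, adjusted p = 0.00147), with the GC and length offsets (0.22, adjusted p = 0.00538) and with DESeq2 (0.30, adjusted p = 0.0306). Its closest copy, Sms-ps, shares 17.5% of the Sms stretches and had 72 to 111 counts. Srm (ENSMUSG00000006442, chromosome 4, 148591503 to 148594993, plus strand), the spermidine synthase, had 2552, 3080 and 3245 normalized counts in the control libraries, against 3104, 2546 and 3245 in the Pdcd1f/fLysMcre libraries. The low value in each genotype came from the library whose deviations followed GC content downwards, and Srm transcripts are 59.8% GC. Its log2 fold change was 0.01 (95% interval -0.24 to 0.25, edgeR adjusted p = 0.981), -0.01 with scaling by library size alone, 0.16 with the GC and length offsets (adjusted p = 0.0425) and 0.002 without the 2 libraries that stand apart (adjusted p = 0.984).

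Sat1 (ENSMUSG00000025283, chromosome X, 155213132 to 155216449, minus strand), the acetyltransferase that starts polyamine breakdown, had 18979, 17069 and 16649 normalized counts in the control libraries, against 16594, 18455 and 16433 in the Pdcd1f/fLysMcre libraries. The highest value in each genotype came from the library with the downward GC relation, and the genotypes overlapped (log2 fold change -0.03, 95% interval -0.19 to 0.13, edgeR adjusted p = 0.829). Without those 2 libraries the values, 17069 and 16649 against 16594 and 16433, no longer overlapped, and the log2 fold change remained -0.03 (edgeR adjusted p = 0.643). The share of all genes without overlap in the remaining libraries was not computed, so this gap is a description. Per kb, Odc1 exceeded Sat1 by a geometric mean of 2.06-fold in Pdcd1f/f and 2.38-fold in Pdcd1f/fLysMcre libraries, without overlap. The ratio of Sms to Srm per kb was 0.251 and 0.308 (geometric means), and overlapped between the genotypes through Pdcd1f/f replicate 1, at 0.324. The other values were 0.237 and 0.205 in the control libraries, against 0.294, 0.387 and 0.258 in the Pdcd1f/fLysMcre libraries. Their separation rests on a library left out after the data were seen, and is a description. Sms and Sat1 are both X-linked. Among the 461 X-linked genes tested, 3.47% passed and the median log2 fold change was 0.0374, against 5.46% and -0.0042 for autosomal genes.

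Oat (ENSMUSG00000030934, chromosome 7, 132557478 to 132576398, minus strand), the aminotransferase that opens the route from ornithine to proline, had 6757 to 7127 normalized counts in Pdcd1f/f and 6447 to 6923 in Pdcd1f/fLysMcre libraries. Its log2 fold change was -0.04 (95% interval -0.18 to 0.09, edgeR adjusted p = 0.717). Without the 2 libraries that stand apart the values were 7010 and 7127 against 6912 and 6923, without overlap (log2 fold change -0.03, edgeR adjusted p = 0.658). That gap, too, has no share over all genes beside it and is a description.

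**Figure D3:**
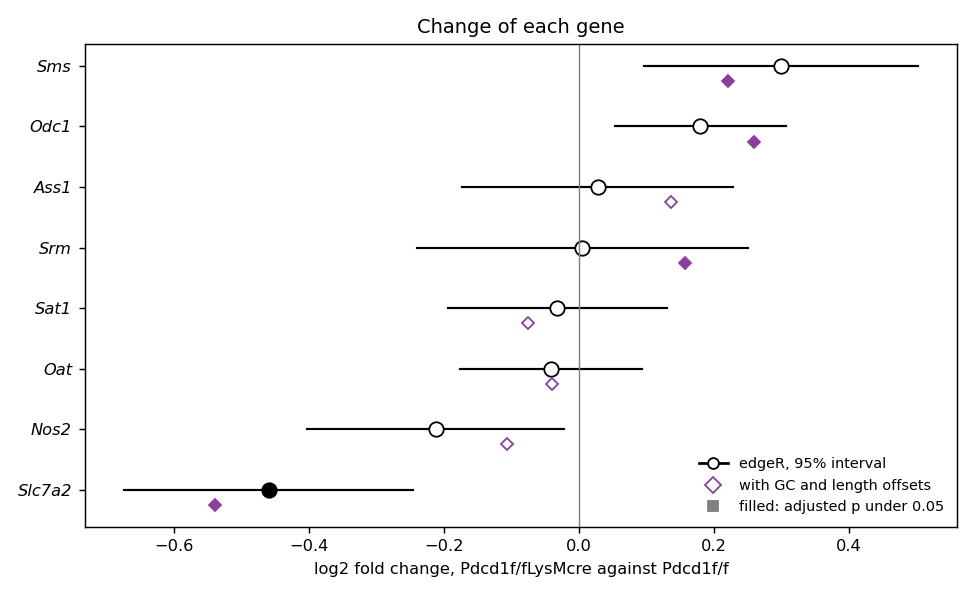
Log2 fold change of each gene in Pdcd1f/fLysMcre against Pdcd1f/f libraries, as black circles with 95% intervals from edgeR, and as purple diamonds with the GC and length offsets, both filled where the adjusted p is under 0.05. Only Slc7a2 is filled among the circles, whereas Slc7a2, Odc1, Srm and Sms are filled among the diamonds.

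Sequence before the start site was examined in the genes described and in Slc7a1, Aldh18a1, Amd1 and Paox of the wider lists, and is printed for 4 genes that stood higher in Pdcd1f/fLysMcre libraries and for Ass1, which overlapped. RefSeq promoter windows (GRCm38.p6, 250 bases before to 50 after the start) matched 5 of the 8 genes, Ass1, Odc1, Oat, Sms and Sat1. The windows were searched on both strands for 8 motifs, among them the letters CACGTG (the E-box bound by MYC and related factors), which 7.2% of all 32851 promoter windows hold, and TGANTCA (the AP-1 motif), which 7.8% hold. The stretches below run 5′ to 3′ on the strand of each gene and end at the base before the start site, with the match in capitals. Ass1, Sms and Aldh18a1 held 1 E-box each and Slc7a1 held 1 AP-1 match. Neither motif was in the windows of Odc1, Oat, Sat1, Amd1 and Paox, or in the second window that Sms and Slc7a1 each have.
Ass1, chr2:31470170-31470269, plus strand: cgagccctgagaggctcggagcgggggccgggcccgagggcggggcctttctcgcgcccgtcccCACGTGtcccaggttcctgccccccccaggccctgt
Odc1, chr12:17544773-17544872, plus strand: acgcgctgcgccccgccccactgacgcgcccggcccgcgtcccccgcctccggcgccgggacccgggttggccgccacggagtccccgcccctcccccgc
Sms, chrX:157492288-157492537, minus strand: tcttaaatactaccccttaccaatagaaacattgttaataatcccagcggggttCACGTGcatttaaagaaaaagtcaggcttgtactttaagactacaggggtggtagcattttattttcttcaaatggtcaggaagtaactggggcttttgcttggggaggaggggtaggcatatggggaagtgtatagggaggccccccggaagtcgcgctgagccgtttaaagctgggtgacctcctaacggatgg
Slc7a1, chr5:148399905-148400054, minus strand: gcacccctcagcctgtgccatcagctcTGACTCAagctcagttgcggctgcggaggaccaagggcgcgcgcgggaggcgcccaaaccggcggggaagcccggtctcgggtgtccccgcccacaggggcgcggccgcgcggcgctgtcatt
Aldh18a1, chr19:40588464-40588563, minus strand: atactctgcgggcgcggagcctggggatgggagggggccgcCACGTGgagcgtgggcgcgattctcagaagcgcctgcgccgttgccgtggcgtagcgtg
The E-box lies 36 to 31 bases before the start of Ass1, 196 to 191 bases before that of Sms and 59 to 54 bases before that of Aldh18a1, and the AP-1 match lies 123 to 117 bases before that of Slc7a1. Of the other motifs, the hypoxia core (ACGTG, in 19.6% of all windows) is part of the E-box letters, so each E-box holds it by definition. Outside an E-box it was in the windows of Oat and Paox. A TATA box (TATAAA, 13.6%) was in the second Slc7a1 window, and the NF-kB motif (4.5%) was in the second Sms window. STAT6-type (7.0%), C/EBP-type (TTGCNNAA, 10.8%) and CRE (TGACGTCA, 1.8%) letters were in none of these windows. A match is a description of the letters and not a measured binding site. Myc itself, for which Odc1 is a classical target, had 2597 ± 172 and 2681 ± 115 normalized counts (log2 fold change 0.05, edgeR adjusted p = 0.72).

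The wider pathway was followed through 75 genes in 9 lists, the 8 genes included, of which 63 could be tested. In these lists 3 genes rose and 5 fell, which is 8 of 63 against the background of 5.43%, and the median log2 fold change was -0.03. In the nitric oxide list none of the 7 tested genes passed with edgeR, and 2 of them had an unadjusted p under 0.05 against 24.2% of all genes tested. Negative log2 fold changes were seen in 6 of 7, with a list median of -0.21 against -0.0026 over all genes. The share of negative changes over all genes was not computed, so that count is a description. Qdpr, which regenerates the cofactor tetrahydrobiopterin, had 3380 ± 222 and 2893 ± 114 normalized counts without overlap (log2 fold change -0.22, edgeR adjusted p = 0.0924). Gch1, the entry enzyme of the same cofactor route, had 2029 ± 96.1 and 2119 ± 84.1 normalized counts (adjusted p = 0.607). In the list of arginine breakdown and the urea cycle, 3 of 7 genes were tested and none passed with edgeR, with 0 at an unadjusted p under 0.05 (24.2% of all genes). Otc had 0 counts in every library, so the hepatic urea cycle step from ornithine to citrulline was not detected at this depth, which allows up to 0.0717 CPM in the shallowest library.

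Among 7 tested genes of the proline and creatine branches 1 rose and 1 fell, against 2.42% and 3.01% of all genes tested. Aldh18a1, the synthase of the proline precursor, had 2217, 2361 and 2476 normalized counts in the control libraries, against 3174, 3036 and 3131 in the Pdcd1f/fLysMcre libraries. It rose by 0.41 ± 0.07 (SE) on the log2 scale (edgeR adjusted p = 0.00715), although the call was lost without Pdcd1f/f replicate 2 (0.0551) or Pdcd1f/fLysMcre replicate 1 (0.0613). Gatm, which takes arginine into creatine synthesis, fell from 3322 ± 68.9 to 2665 ± 212 normalized counts (log2 fold change -0.32, edgeR adjusted p = 0.0328). That call was lost without Pdcd1f/f replicate 2 or 3 (adjusted p = 0.131 and 0.0958) or Pdcd1f/fLysMcre replicate 1 or 3 (0.115 and 0.0867). The other 5 genes of this list, Oat included, did not pass.

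In polyamine synthesis and its regulators 8 of 10 genes were tested and none passed with edgeR, 4 had an unadjusted p under 0.05 (24.2% of all genes), and 3 were higher without overlap (27.2% of all genes in either direction). Those 3 were Odc1, Sms and Amd1, which makes the aminopropyl donor for Srm and Sms and had 1342 ± 173 and 1691 ± 88.2 normalized counts (log2 fold change 0.33, edgeR adjusted p = 0.0719). Amd1 has a near-identical copy, Amd2, which averaged 6.97 and 4.40 normalized counts. Oaz1, the antizyme that targets ODC for degradation, had 7433 ± 481 and 6588 ± 369 (log2 fold change -0.17, adjusted p = 0.172), and Azin1, which sequesters antizyme, had 21235 ± 1590 and 23653 ± 1765 (log2 fold change 0.16, adjusted p = 0.233). In the list of breakdown and transport, Paox, the peroxisomal oxidase of acetylated polyamines, fell. Its normalized counts were 572, 584 and 640 in the control libraries, against 345, 382 and 396 in the Pdcd1f/fLysMcre libraries, a log2 fold change of -0.67 ± 0.10 (SE, edgeR adjusted p = 0.00348) that passed under all 16 alternatives. The remaining 6 tested genes of that list did not pass, among them Smox, the spermine oxidase, at 4800 ± 551 and 5049 ± 392 normalized counts, and Atp13a2, a lysosomal polyamine exporter, at 10982 ± 2038 and 8205 ± 1237 (log2 fold change -0.42, adjusted p = 0.104).

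Among 13 regulators of arginine use, 1 rose and 2 fell, against 2.42% and 3.01% of all genes tested. Il4ra, a receptor chain shared by IL-4 and IL-13, had 28274, 33575 and 37187 normalized counts in the control libraries, against 18088, 16297 and 19595 in the Pdcd1f/fLysMcre libraries. It fell by 0.87 ± 0.10 (SE) on the log2 scale (edgeR adjusted p = 0.00102), while its signal transducer Stat6 had 8753 ± 561 and 8196 ± 208 normalized counts (adjusted p = 0.418). Irf1, an interferon-induced factor that acts on the Nos2 promoter, fell from 2827 ± 232 to 2200 ± 213 (log2 fold change -0.36, edgeR adjusted p = 0.0446). Hif1a, the hypoxia-inducible factor that can raise Nos2, rose from 21520 ± 962 to 25940 ± 1578 (log2 fold change 0.27, edgeR adjusted p = 0.042). Leaving out 1 library ended the Irf1 call for Pdcd1f/f replicate 2 or 3 and Pdcd1f/fLysMcre replicate 1 or 2 (adjusted p = 0.185, 0.164, 0.169 and 0.147). It ended the Hif1a call for Pdcd1f/f replicate 2 or 3 and for Pdcd1f/fLysMcre replicate 1, 2 or 3 (adjusted p = 0.207, 0.154, 0.152, 0.119 and 0.0568). The Il4ra call passed under all 16 alternatives. Among the other regulators, Stat3, Nfkb1, Stat6 and Cebpb had the highest normalized counts, without division by exon length. Stat3, Nfkb1 and Cebpb had log2 fold changes of -0.14, 0.18 and -0.27 and did not pass (edgeR adjusted p = 0.161, 0.083 and 0.128).

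**Figure D4:**
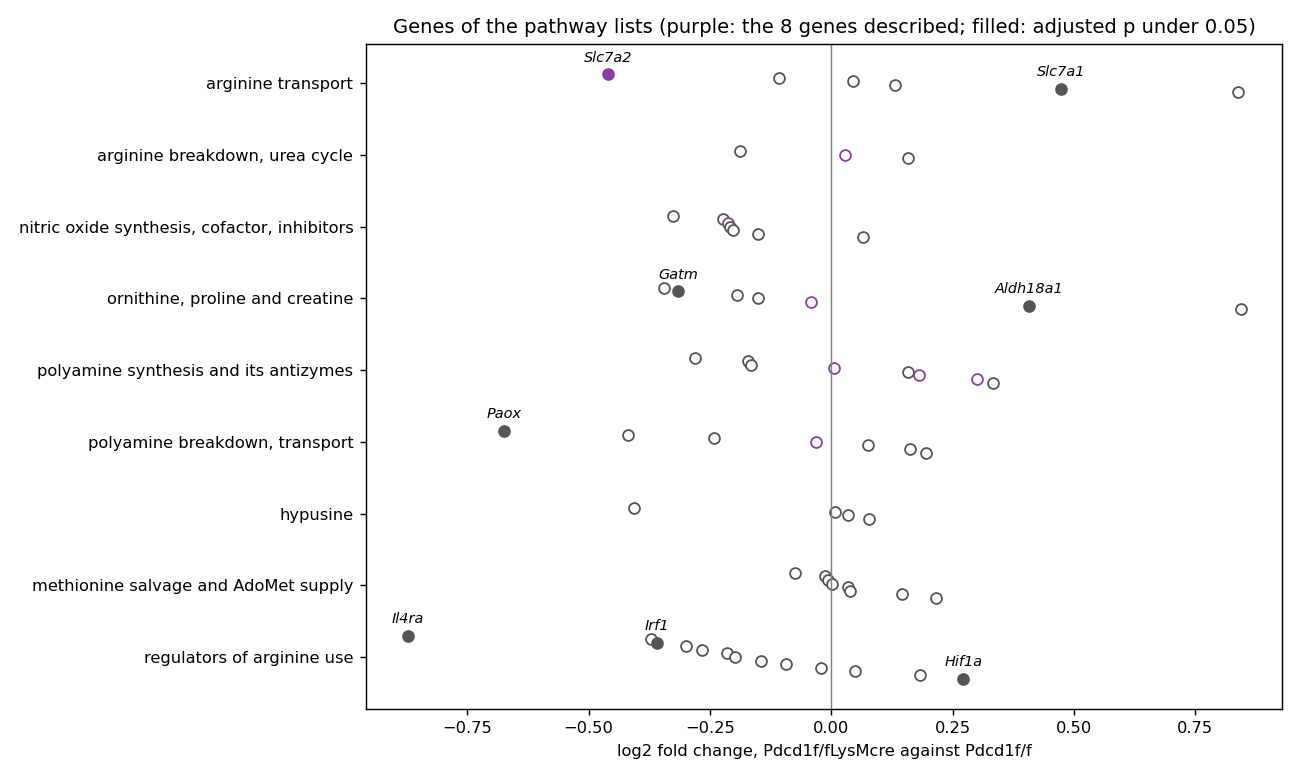
Log2 fold change in Pdcd1f/fLysMcre against Pdcd1f/f libraries of the 63 tested genes of the 9 pathway lists, one row a list and one circle a gene, purple for the 8 genes described, and filled and named where the edgeR adjusted p is under 0.05. The 8 filled circles comprise 3 genes to the right of 0 (Slc7a1, Aldh18a1 and Hif1a) and 5 to the left (Slc7a2, Gatm, Paox, Il4ra and Irf1).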

How the data were processed

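RNA-seq of sorted TAMs was analyzed from 6 libraries, with genotype and replicate number taken from the labels. The authors isolated polyA RNA with a stranded kit, sequenced paired-end reads of 42 nt, removed adapters with cutadapt 2.5, aligned them to GRCm38 with STAR 2.7.3a and assigned reads to Ensembl gene loci by featureCounts (Subread 1.6.2). They deposited raw counts for 55421 genes, and a table of normalized signal for 16552 genes whose values equal the counts divided by 1 size factor per library (0.895 to 1.08). The members of the gene set and the pathway and marker lists were chosen with earlier results of these data known, and some listed genes and a motif are not reported here.

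Normalized counts in the text are counts divided by these size factors, with SD over 3 libraries. The test of genotype was run on raw counts in edgeR 4.0.16 (R 4.3.3), using filterByExpr (minimum count of 10, minimum total of 15), TMM scaling, robust glmQLFit and two-sided glmQLFTest, and p-values were adjusted by Benjamini-Hochberg over 14469 genes, with 0.05 as the threshold. Positions, union exon lengths and GC content came from GENCODE M21 (GRCm38), and promoter sequences from RefSeq. The genes named were the 8 genes described, each listed gene past the threshold, up to 4 of the most abundant others per list, and the checks of genotype, targeted gene, cell type and sex-linked transcripts. Amd1, Amd2, Otc, Myc, and the marker genes given by name, were named after their values were seen.

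Alternatives were RLE scaling, scaling by library size, every gene that had at least 1 count, at least 10 counts in every library, DESeq2 1.42.0, limma-trend (limma 3.58.1) on log2(value + 1), the replicate number as a block, loess offsets for GC content and length (span 0.5), alone or together with that block, omission of each library in turn and a threshold of 0.01. Leaving out 2 libraries together was added after the data were seen. The scripts were tested on simulated counts. Replicates of a genotype differed by more than sampling noise (chi-square of 5.44 to 43.1 per gene), and the biological coefficient of variation was 8.92%.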

Additional observations from a re-analysis of the deposited data

How the results depend on the processing

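The number of the 8 genes past the threshold was 1 in the main comparison. It was 2 over all genes with at least 1 count, 3 with DESeq2, 4 with the GC and length offsets, with or without the block, 4 in the 4 libraries left without Pdcd1f/f replicate 1 and Pdcd1f/fLysMcre replicate 2, 0 at a threshold of 0.01, and 0 to 3 when 1 library was left out. Over all genes tested, 786 passed, and the numbers in the same order were 1951, 1533, 2704 and 2780 (with the block), 3757, 283 and 222 to 3181, the lowest without Pdcd1f/fLysMcre replicate 1 and the highest without Pdcd1f/f replicate 1. Of the listed pathway genes 8 passed, against 16, 16, 23 and 23, 32, 4 and 3 to 26. Higher genes made up 44.5% of all calls in the main comparison and 57.9% with the GC and length offsets.

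The labels do not say whether libraries with the same replicate number belong together. Correlations of same-numbered deviations were -0.03, -0.19 and 0.40, and not every library correlated best with its own number. The deviations also followed GC content, so these correlations cannot settle whether the libraries are paired. With the replicate block 1027 genes, 12 pathway genes and 2 of the 8 genes passed, Slc7a2 and Sms (adjusted p = 0.0369).

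In Ass1 the log2 fold change turned to -0.051 in the 4 libraries. It turned to -0.058 and -0.023 without Pdcd1f/f replicate 1 and Pdcd1f/fLysMcre replicate 3. With 1 library left out the highest Ass1 value was 0.089, without Pdcd1f/f replicate 2. Over all alternatives it was 0.137, with the GC and length offsets. In Srm the log2 fold change turned to -0.011 with library size alone. It turned to -0.1, -0.029 and -0.07 without Pdcd1f/f replicate 1, Pdcd1f/fLysMcre replicate 1 and Pdcd1f/fLysMcre replicate 3. With 1 library left out the highest Srm value was 0.104, without Pdcd1f/fLysMcre replicate 2. Over all alternatives it was 0.158, with the GC and length offsets. In Sat1 the log2 fold change turned to 0.018 without Pdcd1f/f replicate 1 (lowest -0.087). Nos2, Slc7a2, Odc1, Oat and Sms kept their sign in all 16 alternatives at the threshold of 0.05. Slc7a2 passed in 12 of 16, Sms in 7, Odc1 in 4, Nos2 and Srm in 2, and the cause of these differences was not tested. Pdcd1 and Slc7a3 were limited by few counts.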

Other observations

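Polyamines also feed hypusine, the modified residue of the translation factor eIF5A that is built from spermidine, and draw on methionine salvage, which recovers the by-product of Srm and Sms. In the hypusine list none of the 4 genes passed with edgeR, and 1 had an unadjusted p under 0.05, where 24.2% of all genes tested had one. Eif5a had 34383 ± 2583 normalized counts in Pdcd1f/f and 35155 ± 970 in Pdcd1f/fLysMcre libraries, Dhps, which builds the precursor residue, had 1452 ± 123 and 1457 ± 48.3, and Dohh, which completes it, had 337 ± 72.4 and 253 ± 45.7 (SD, n = 3, log2 fold change -0.41, edgeR adjusted p = 0.203). In the list of methionine salvage and AdoMet supply none of the 8 genes passed with edgeR, and 1 had an unadjusted p under 0.05 (24.2% of all genes). Mtap, which cleaves the by-product methylthioadenosine, was higher in every Pdcd1f/fLysMcre library, at 3487, 3779 and 3448 normalized counts against 3294, 2921 and 3027 in the controls (log2 fold change 0.22, edgeR adjusted p = 0.0996). Mat2a, an AdoMet synthetase, had 7986 ± 862 and 8171 ± 746 normalized counts.

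Pycr1, which reduces the proline precursor made by Aldh18a1, had 53.8, 58.1 and 53.7 normalized counts in the control libraries, against 106, 69.5 and 122 in the Pdcd1f/fLysMcre libraries, with a log2 fold change of 0.84 (edgeR adjusted p = 0.0612). Irf8, a myeloid transcription factor in the list of regulators, had 3818, 4412 and 4530 normalized counts in the control libraries, against 3368, 3384 and 3605 in the Pdcd1f/fLysMcre libraries (log2 fold change -0.30, edgeR adjusted p = 0.0519). Both genes were named after their values were seen.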
